A study of Homo sapiens with 15 samples.

Results

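The 6 mature miRNAs described here are hsa-miR-582-5p, hsa-miR-582-3p, hsa-miR-616-5p, hsa-miR-616-3p, hsa-miR-5010-5p and hsa-miR-5010-3p, both arms of 3 hairpins, out of 1707 miRNAs counted by miRNA-Seq in the established human glioblastoma line U87-MG. The 3 hairpins were chosen by their higher level in HIF1α/HIF2α-KO cells than in hypoxic control cells, so that difference is given as a description without a test. The choice named no threshold. Cells without a HIF knockout (control) and cells with HIF1α (HIF1α-KO), HIF2α (HIF2α-KO) or both (HIF1α/HIF2α-KO) knocked out were kept under hypoxia, 1% O2 for 24 h. A further set of control cells was kept under normoxia, 21% O2 for 24 h, and each of the 5 groups had 3 libraries. Knockouts were made with CRISPR/Cas9 guides delivered by lentivirus, and the study's methods do not say whether single clones were used. The assay counts no mRNA, so the knockout of HIF1A or EPAS1, the genes of the 2 subunits, cannot be checked in it. Nothing in the labels says that replicates came from separate cultures, so p-values measure only the spread between these libraries, which may be technical.

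HIF1α and HIF2α are the oxygen-regulated subunits of transcription factors that accumulate at low oxygen. An intronic miRNA lies inside an intron of a protein-coding gene and can be cut from the host's transcript. In the usual pathway the enzyme Drosha frees a hairpin, Dicer cuts off its loop, and 1 of the 2 arms (5p or 3p) is mostly kept in an Argonaute protein, where bases 2 to 8, the seed, pair with target mRNAs. In a mirtron, splicing takes the place of Drosha at an end of the hairpin.

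The mature sequences, from RefSeq on GRCh38.p14, show what distinguishes the arms, with the seed in capitals:
miR-582-5p: uUACAGUUguucaaccaguuacu
miR-582-3p: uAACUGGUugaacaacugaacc
miR-616-5p: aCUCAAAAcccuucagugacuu
miR-616-3p: aGUCAUUGgaggguuugagcag
miR-5010-5p: aGGGGGAUggcagagcaaaauu
miR-5010-3p: uUUUGUGUcucccauuccccag
No pair of these arms shared a seed. The seed of miR-5010-5p also occurs in miR-4525, which had 0 to 2 counts in a library. The seed of miR-616-5p also occurs in miR-371b-5p and miR-373-5p, which were not analysed here. The 2 arms of miR-582 hold the longest complementary stretch, 18 bases that take up the start of miR-582-3p (UAACUGGUUGAACAACUG), against 7 bases in miR-616 and 5 in miR-5010.

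The mature arms of all 3 hairpins lie in introns on the host's strand in GENCODE v29 (GRCh38), but the kind of intron differed. MIR582 (chr5:59703606-59703703, minus strand) lies in PDE4D, a phosphodiesterase that degrades cAMP, in introns of 427573 to 772519 bases in 8 transcripts. MIR616 (chr12:57519163-57519259, minus strand) lies in intron 1 of DDIT3, which encodes the stress-response transcription factor CHOP, in 6 transcripts, with an intron length of 2664 or 3855 bases. MIR5010 (chr17:42514188-42514307, plus strand) lies at the end of a short intron of ATP6V0A1, a subunit of the proton pump that acidifies organelles. In 9 of 10 transcripts both miR-5010 arms lie in an intron of 310 bases and the last base of miR-5010-3p is the last base of that intron, with 0 bases after it, while the hairpin runs on into the next exon. The host mRNAs are not measured by this assay. No other annotated miRNA hairpin lay within 10000 bases of MIR582 or MIR5010, and MIR616 had 1, MIR6758, at a distance of 6413 bases.

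**Figure D1:**
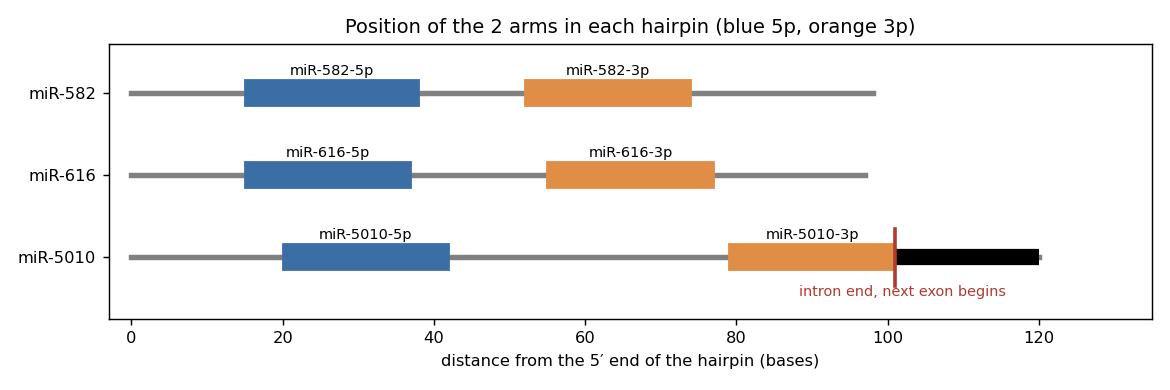
Map of the 3 hairpins drawn to scale, with distance from the 5′ end of each hairpin in bases on the x axis, 5p arms in blue and 3p arms in orange. Only the miR-5010 hairpin, of 120 bases, crosses an intron end, marked in red directly after miR-5010-3p, with the exon in black.

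The position of miR-5010-3p was shared with few other miRNAs of measurable level. Among the 1545 miRNAs of the files with a RefSeq position, 137 ended at the last base of an intron and 13 began at its first base. Of these, 12 and 1 were abundant enough to test. The mean level of miR-5010-3p over the 15 libraries was 4.32 TMM CPM, which is CPM, the share of the library's counts on a per-1e6 scale, corrected with edgeR's TMM factors. Among the 13 tested miRNAs of this class, a class chosen after their values were seen, only miR-877-5p had a higher mean (4.63 TMM CPM), and the others ranged from 0.450 to 3.11. None of the 13 passed in the 3 comparisons tested with edgeR (HIF1α-KO against normoxic control, HIF2α-KO against HIF1α-KO, and HIF2α-KO against normoxic control). Their median log2 fold changes were -0.05, -0.15 and 0.06 in that order.

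Libraries held between 10360337 and 22496373 counts. A floor of 3 counts, which covers counting error only, came to 0.290 CPM or less in every library. miR-210-3p, a textbook HIF target, was at 1042 ± 109 TMM CPM in hypoxic control cells (SD, n = 3), 309 ± 110 in HIF1α-KO, 1550 ± 404 in HIF2α-KO and 225 ± 108 in HIF1α/HIF2α-KO cells, and it was at 1188 ± 151 in normoxic control cells, where the hypoxic group overlapped it. Marker miRNAs of other cell types were summed in each library. By the endothelial list, the 2 arms of miR-126, there were 9 libraries at 14 to 50.8 TMM CPM (the higher set) and 6 at 4.01 to 6.64 (the lower set), namely hypoxic control replicates 2 and 3, HIF1α-KO replicates 1 and 2, HIF2α-KO replicate 2 and HIF1α/HIF2α-KO replicate 3. Across libraries the other sums were 2.15 to 18.5 for erythroid, 1.33 to 4.27 for leukocyte, 36.7 to 97.1 for epithelial and 1.63 to 45.1 for muscle miRNAs, and miR-124-3p, the neuronal marker, was at 0 to 0.539. miR-21-5p, abundant in glioblastoma, took 16.5% to 25.5% of the counts.

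The members were of low to middle abundance among the 562 miRNAs tested. miR-582-3p, with 34 to 255 counts in a library, lay at percentile 47.7 of mean level, and miR-5010-3p, with 21 to 100 counts, at percentile 44.1. miR-582-5p (11 to 76 counts) lay at percentile 31.3, miR-616-5p (12 to 48 counts) at 29.9 and miR-616-3p (8 to 28 counts) at 18.5. Counting error alone is wide at this depth. The 8 counts of miR-616-3p in HIF2α-KO replicate 3 gave 0.682 CPM of the library total with an exact 95% interval of 0.295 to 1.34, whereas the 255 counts of miR-582-3p in HIF1α-KO replicate 2 gave 12.3 with an interval of 10.9 to 13.96.

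miR-582-3p had its highest levels in both groups without HIF1α. In normoxic control cells it was at 3.09, 3.16 and 3.16 TMM CPM, and in hypoxic control cells at 3.13, 3.72 and 6.41. In HIF1α-KO cells it was at 7.99, 12.5 and 6.20, in HIF2α-KO cells at 3.68, 4.19 and 3.89, and in HIF1α/HIF2α-KO cells at 7.87, 8.49 and 12.1. The HIF2α-KO libraries lay within the range of the hypoxic control libraries, and every HIF1α/HIF2α-KO library was above every control and HIF2α-KO library. The order of the means was HIF1α/HIF2α-KO (9.50 ± 2.30), HIF1α-KO (8.88 ± 3.22), hypoxic control (4.42 ± 1.75), HIF2α-KO (3.92 ± 0.255) and normoxic control cells (3.14 ± 0.0416). Neighbours in this order overlapped, except HIF2α-KO and normoxic control cells.

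miR-582-5p, from the opposite arm, was ordered much like miR-582-3p at a lower level. In normoxic control cells it was at 1.06, 0.848 and 1.10 TMM CPM, and in hypoxic control cells at 1.38, 1.43 and 3.06. In HIF1α-KO cells it was at 2.61, 3.71 and 2.52, in HIF2α-KO cells at 1.49, 1.90 and 2.47, and in HIF1α/HIF2α-KO cells at 2.96, 3.41 and 4.67. The normoxic libraries were the lowest 3 of all 15. Hypoxic control replicate 3 was high for both arms of miR-582.

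The 2 arms of miR-616 were ordered differently across the groups. miR-616-5p was at 1.95, 1.39 and 1.48 TMM CPM in normoxic control cells and at 1.11, 1.30 and 1.60 in hypoxic control cells. It was at 2.61, 2.35 and 2.52 in HIF1α-KO cells, at 2.11, 1.43 and 2.66 in HIF2α-KO cells, and at 2.46, 2.12 and 3.20 in HIF1α/HIF2α-KO cells. All libraries of HIF1α-KO and HIF1α/HIF2α-KO cells were above all 6 control libraries, while the HIF2α-KO libraries spread across both ranges. miR-616-3p, in contrast, had overlapping groups throughout, with group means of 1.04 to 1.34 TMM CPM and single libraries from 0.738 to 1.97, both in HIF1α/HIF2α-KO cells.

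miR-5010-3p was highest in HIF1α/HIF2α-KO cells. It was at 3.90, 3.47 and 3.22 TMM CPM in normoxic control cells and at 1.94, 3.50 and 3.28 in hypoxic control cells. It was at 4.97, 4.01 and 4.49 in HIF1α-KO cells, at 3.76, 4.95 and 4.46 in HIF2α-KO cells, and at 5.61, 7.58 and 5.74 in HIF1α/HIF2α-KO cells. Each HIF1α/HIF2α-KO library was above all 12 others, and the HIF1α-KO and HIF2α-KO libraries were interleaved. The opposite arm, miR-5010-5p, was not tested, since it had 0 counts in all 6 control libraries and 5 counts in all, 2 in HIF1α-KO replicate 2 and 1 each in HIF2α-KO replicates 2 and 3 and HIF1α/HIF2α-KO replicate 3. Each of these counts is under the floor of 3 counts.

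**Figure D2:**
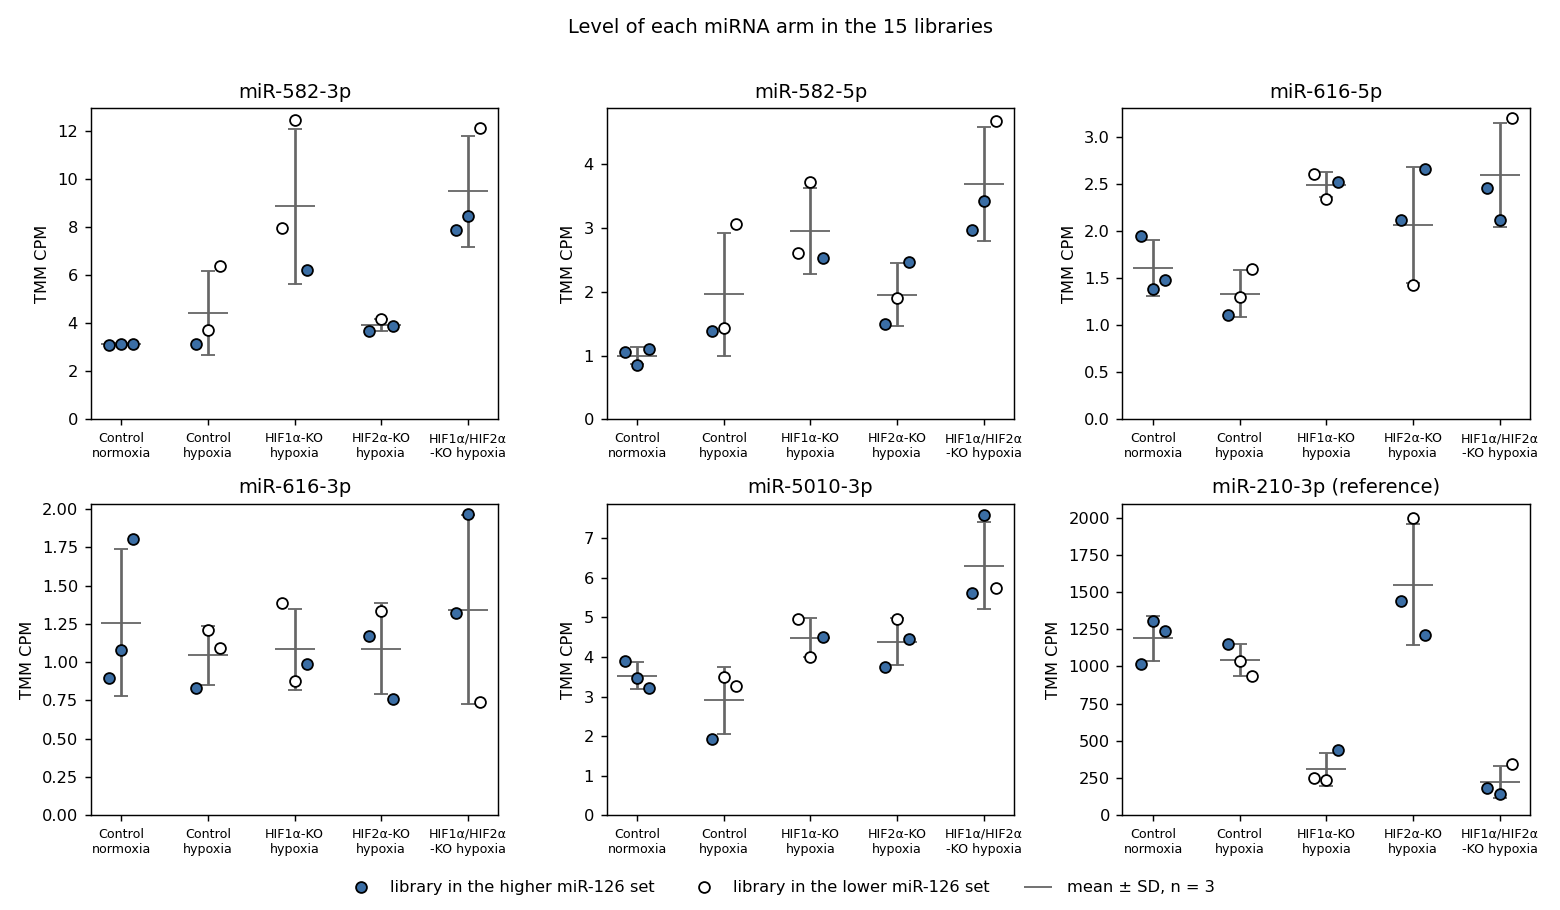
Level in TMM CPM (y axis, from 0) of the 5 tested arms and of miR-210-3p in each of the 15 libraries by group (x axis), filled points for the 9 libraries of the higher miR-126 set and open points for the 6 of the lower set, with mean ± SD of 3 libraries. The 2 arms of miR-582 are highest in HIF1α-KO and HIF1α/HIF2α-KO cells, miR-616-3p overlaps in all groups, and miR-5010-3p is highest in HIF1α/HIF2α-KO cells.

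The share of reads from each arm separated the 3 hairpins. Of 1756 reads on miR-582, 72.6% came from the 3p arm, with group means from 67.1% ± 5.22 in HIF2α-KO cells to 75.9% ± 2.58 in normoxic control cells. Of 894 reads on miR-5010, 99.4% came from the 3p arm. Of 657 reads on miR-616, only 37.1% came from the 3p arm. The group means of miR-616 were 43.4% ± 11.7 in normoxic control, 43.9% ± 3.97 in hypoxic control, 30.1% ± 4.04 in HIF1α-KO, 35.4% ± 13.0 in HIF2α-KO and 33.97% ± 14.7 in HIF1α/HIF2α-KO cells. The extremes for miR-616 were 18.8% in HIF1α/HIF2α-KO replicate 3 (95% Wilson interval 10.2 to 31.9, 48 reads) and 54.9% in normoxic control replicate 3 (41.4 to 67.7, 51 reads), and the ranges of HIF1α-KO and normoxic control cells overlapped. The HIF1α-KO libraries, at 27.3% to 34.7%, lay below the hypoxic control libraries, at 40.5% to 48.3%, a difference that was not tested.

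**Figure D3:**
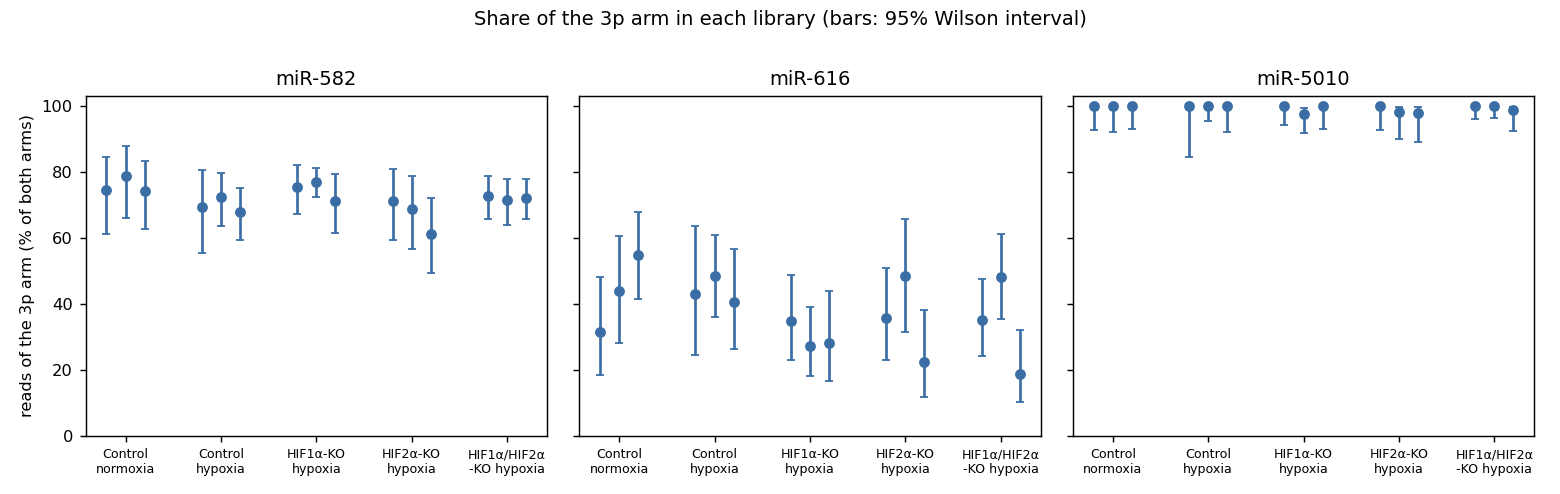
Reads of the 3p arm as a percent of both arms (y axis) in each library by group (x axis), with 95% Wilson intervals that cover counting error only. miR-582 lies between 61.2% and 78.8%, miR-616 between 18.8% and 54.9%, and miR-5010 at 97.6% or above.

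HIF1α-KO cells under hypoxia were compared with normoxic control cells. The difference of means in this comparison uses no library of the contrast by which the members were chosen. The shared estimate of the spread, the filter and the TMM factors came from all 15 libraries, those of that contrast included. Genotype and oxygen differ together in this comparison and cannot be told apart. Both arms of miR-582 rose. miR-582-3p was 2.84-fold higher (log2 fold change 1.51 ± 0.301, SE, edgeR adjusted p = 0.0164) and miR-582-5p was 2.95-fold higher (1.56 ± 0.342, adjusted p = 0.0284), each higher in 3 of 3 libraries. With only the libraries compared in the fit, the edgeR adjusted p was 0.0412 for miR-582-3p and 0.0315 for miR-582-5p. The other 3 arms did not pass. miR-616-5p had a log2 fold change of 0.63 ± 0.257 (adjusted p = 0.228, unadjusted p = 0.0284 in edgeR), miR-5010-3p one of 0.34 ± 0.229 (adjusted p = 0.489) and miR-616-3p one of -0.25 ± 0.382 (adjusted p = 0.758). Thus 2 of 5 tested members were called higher, against 0.712% of all 562 miRNAs (4, these 2 included). Both are arms of the miR-582 hairpin, with a Pearson r of 0.929 across the libraries, so they do not count as independent. With no overlap between the groups, 4 of 5 members were higher, against 11.2% of all, and the exact permutation p for each of the 4 was 0.1, the smallest that 3 libraries against 3 allow. Of all miRNAs, 4 were called higher and 9 lower with TMM, 4 and 3 with library totals alone, and 5 and 4 in limma.

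Both miR-582 calls were lost in some of the fits with 1 replicate left out. Such fits also called fewer of all miRNAs, 3 to 9 against 13. The call of miR-582-3p was lost without normoxic control replicate 1, 2 or 3 (edgeR adjusted p = 0.0857, 0.0765 and 0.109) or HIF1α-KO replicate 2 (0.125). That of miR-582-5p was lost without normoxic control replicate 1, 2 or 3 (0.107, 0.105 and 0.113) or HIF1α-KO replicate 1 or 2 (0.0550 and 0.143). The log2 fold changes stayed at 1.18 to 1.73 and 1.35 to 1.68. With the miR-126 set of each library as a covariate, neither was called (miR-582-3p 1.11, edgeR adjusted p = 0.0751, and miR-582-5p 1.29, adjusted p = 0.130). All 3 normoxic libraries and only HIF1α-KO replicate 3 were in the higher set. That library, at 6.20 and 2.52 TMM CPM for miR-582-3p and miR-582-5p, was above the normoxic ranges of 3.09 to 3.16 and 0.848 to 1.10. It was also the lowest of the HIF1α-KO libraries for both arms. For miR-582-3p the lower set lay above the higher set within hypoxic control libraries (3.72 to 6.41 against 3.13). The same held in HIF1α-KO (7.99 to 12.5 against 6.20), HIF2α-KO (4.19 against 3.68 to 3.89) and HIF1α/HIF2α-KO libraries (12.1 against 7.87 to 8.49). For miR-582-5p it held except in HIF2α-KO libraries (1.90 against 1.49 to 2.47). This order did not hold in all of these groups for miR-616-5p, miR-616-3p or miR-5010-3p. Each of these groups had 2 libraries in one set and 1 in the other. The share of all miRNAs with this order was not counted, and its link to the miR-126 set was not tested. The summed muscle miRNAs (miR-1-3p, miR-133a-3p and miR-206) were at 1.63 to 7.48 TMM CPM in normoxic control and 8.45 to 44.2 in HIF1α-KO libraries, and the 4 epithelial miRNAs at 64.7 to 86.0 and 42.1 to 70.6. Their part in the result was not tested.

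HIF2α-KO cells were compared with HIF1α-KO cells, both under hypoxia. The missing subunit and any other difference between the knockout cell populations change together and cannot be told apart. None of the 5 tested members passed. miR-582-3p had a log2 fold change of -1.19 ± 0.299 (2.28 times lower in HIF2α-KO cells, edgeR adjusted p = 0.0626, unadjusted p = 0.00145), with 95% limits of -1.83 and -0.54. It passed in the Wald test of DESeq2 (adjusted p = 0.0163). In edgeR it passed with library totals (0.0213), without the filter on low counts (0.0103) and without HIF1α-KO replicate 3 (0.0283). It did not pass in the other 5 of 8 settings or in the other 5 of 6 fits with a replicate left out. Among these, the edgeR adjusted p was 0.238 with only the libraries compared, 0.0859 with the replicate block and 0.0873 with the miR-126 set. Over all alternatives its adjusted p was 0.0103 to 0.305. HIF1α-KO replicates 1 and 2 and HIF2α-KO replicate 2 were in the lower miR-126 set. miR-582-5p had a log2 fold change of -0.61 ± 0.325 (adjusted p = 0.343) and miR-616-5p one of -0.26 ± 0.255 (0.636). The interval of the difference was -0.52 to 0.46 for miR-5010-3p and -0.82 to 0.87 for miR-616-3p.

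Among all miRNAs 0.178% (1) were called lower in HIF2α-KO than in HIF1α-KO cells, and 0 of 5 members, with 1 member at an unadjusted p under 0.05. With no overlap between the groups, 2 of 5 members, both arms of miR-582, were lower, against 9.43% of all. The miR-210-3p level, 5.02-fold higher in HIF2α-KO cells (edgeR adjusted p = 0.0024), had the opposite direction to miR-582-3p. The median log2 fold change of all miRNAs was 0.05 with TMM and -0.13 with library totals alone, so that of miR-616-3p, 0.03 with TMM, turned to -0.15 with library totals. Over all miRNAs 5 were called higher and 1 lower with TMM, 2 and 10 with library totals, and 3 and 3 in limma. The muscle miRNAs summed to 2.51 to 18.7 TMM CPM in HIF2α-KO libraries against 8.45 to 44.2 in HIF1α-KO libraries, and their part in these differences was not tested.

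HIF2α-KO cells under hypoxia were also compared with normoxic control cells, again with genotype and oxygen changed together. No member passed in edgeR, with 1 at an unadjusted p under 0.05, and 0% of all miRNAs were called higher (85 of all had an unadjusted p under 0.05). That member was miR-582-5p, with a log2 fold change of 0.95 ± 0.357 (unadjusted p = 0.019, adjusted p = 0.271 in edgeR). miR-582-3p had a log2 fold change of 0.32 ± 0.306 (adjusted p = 0.687), miR-616-5p one of 0.37 ± 0.264 (0.553), miR-5010-3p one of 0.31 ± 0.231 (0.557) and miR-616-3p one of -0.22 ± 0.390 (0.835). With no overlap, 2 of 5 members, again both arms of miR-582, were higher, against 9.43% of all. miR-582-3p showed how small such a gap can be, since its HIF2α-KO libraries began at 3.68 and its normoxic libraries ended at 3.16 TMM CPM.

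**Figure D4:**
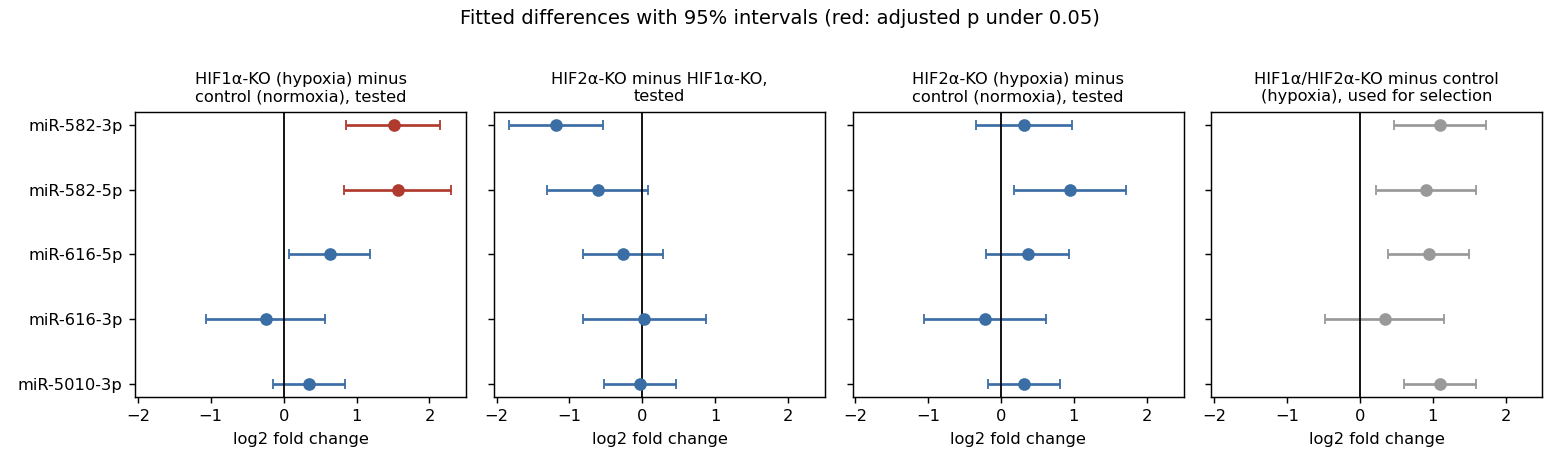
Fitted log2 fold change (x axis) with 95% interval of the 5 tested arms in 4 comparisons, red where the edgeR adjusted p was under 0.05, blue where it was not, and grey for the contrast by which the members were chosen, which was not tested. The only red points are both arms of miR-582 in HIF1α-KO against normoxic control cells, at 1.51 and 1.56.

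**Figure D5:**
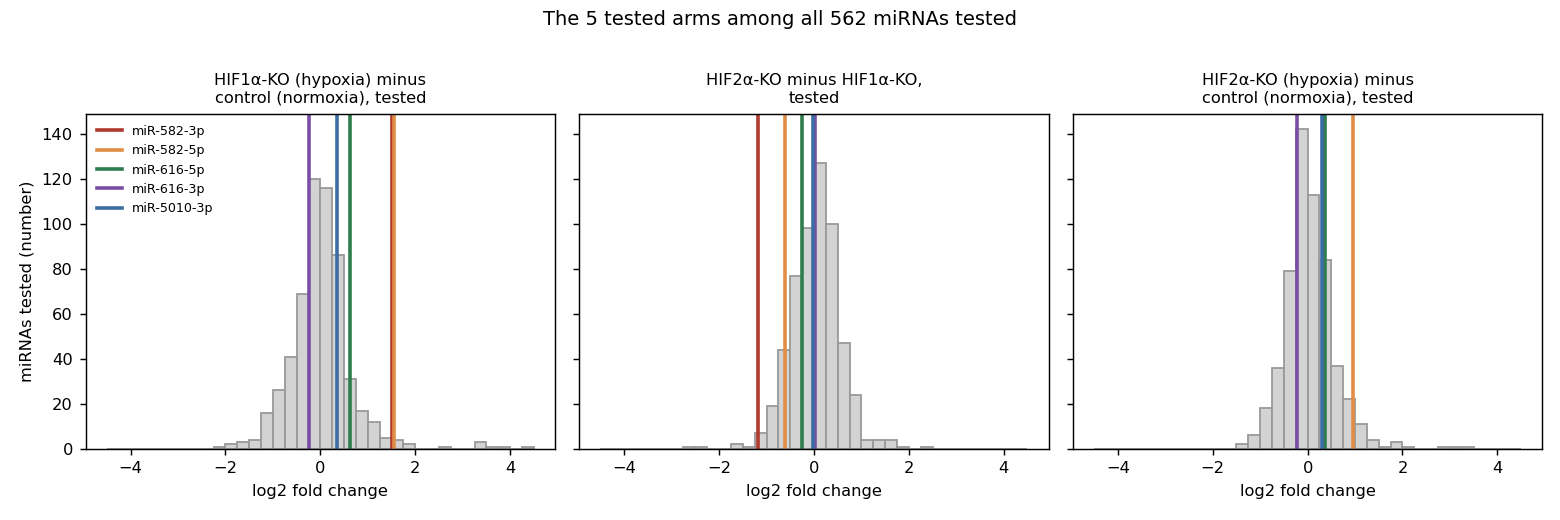
Number of miRNAs tested (y axis, grey bars, 562 in each panel) by log2 fold change (x axis) in the 3 tested comparisons, with a coloured line for each of the 5 arms. The lines of both miR-582 arms lie in the right tail in HIF1α-KO against normoxic control cells, and those of miR-616-3p and miR-5010-3p near the centre in HIF2α-KO against HIF1α-KO cells (0.03 and -0.03).

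The contrast that chose the members is given for its sizes. In HIF1α/HIF2α-KO against hypoxic control cells the log2 fold changes were 1.10 ± 0.295 for miR-582-3p, 0.91 ± 0.316 for miR-582-5p, 0.94 ± 0.259 for miR-616-5p, 0.34 ± 0.376 for miR-616-3p and 1.10 ± 0.229 for miR-5010-3p. The median over the 5 members was 0.94, and that over all miRNAs tested was -0.02. The groups did not overlap for 3 of 5 members, against 13.7% of all, and miR-582-5p and miR-616-3p overlapped. The value of miR-616-3p was smaller than its own standard error.

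Comparisons that share the hypoxic control or the HIF1α/HIF2α-KO libraries with that contrast are also given without a test. In HIF1α-KO against hypoxic control cells the log2 fold changes were 1.01 ± 0.294 for miR-582-3p, 0.89 ± 0.259 for miR-616-5p, 0.61 ± 0.318 for miR-582-5p, 0.61 ± 0.230 for miR-5010-3p and 0.01 ± 0.391 for miR-616-3p, with 2 of 5 higher without overlap against 10.1% of all. In HIF2α-KO against hypoxic control cells they were 0.62 ± 0.266 for miR-616-5p, 0.58 ± 0.232 for miR-5010-3p, 0.04 ± 0.394 for miR-616-3p, -0.002 ± 0.336 for miR-582-5p and -0.17 ± 0.301 for miR-582-3p, with 1 of 5 higher without overlap against 9.07%. The arms of miR-582 thus had lower values with HIF2α knocked out than with HIF1α knocked out, while miR-5010-3p had nearly the same value in both. In hypoxic against normoxic control cells, the 1 member of 5 higher without overlap, against 7.83% of all, was miR-582-5p (0.95 ± 0.349), and the other 4 ranged from -0.26 to 0.49.

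HIF1α/HIF2α-KO against HIF1α-KO cells sets the loss of both subunits beside that of HIF1α alone. The log2 fold changes were 0.49 ± 0.225 for miR-5010-3p, 0.33 ± 0.380 for miR-616-3p, 0.30 ± 0.307 for miR-582-5p, 0.09 ± 0.287 for miR-582-3p and 0.06 ± 0.248 for miR-616-5p, with a median of 0.30 against 0.02 over all miRNAs. Without overlap between the groups, 1 of 5 members, miR-5010-3p, was higher, against 10.5% of all. In HIF1α/HIF2α-KO against HIF2α-KO cells the values were 1.27 ± 0.300 for miR-582-3p, 0.91 ± 0.323 for miR-582-5p, 0.52 ± 0.227 for miR-5010-3p, 0.32 ± 0.255 for miR-616-5p and 0.30 ± 0.388 for miR-616-3p, and the first 3 of the 5 were higher without overlap, against 8.72% of all. In HIF1α/HIF2α-KO cells against normoxic control cells they were 1.86 ± 0.340 for miR-582-5p, 1.59 ± 0.302 for miR-582-3p, 0.84 ± 0.228 for miR-5010-3p, 0.69 ± 0.257 for miR-616-5p and 0.08 ± 0.374 for miR-616-3p, with 4 of 5 higher without overlap against 17.4% of all. The muscle miRNAs summed to 20.2 to 45.1 TMM CPM in HIF1α/HIF2α-KO and 6.73 to 27.9 in hypoxic control libraries, and the epithelial miRNAs to 36.7 to 52.9 and 47.5 to 97.1. Their part in these differences was not tested.

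The levels were also followed across the 15 libraries, as Pearson correlations of log2(TMM CPM + 1), given as a description because the libraries share their groups. The members were chosen by their rise in HIF1α/HIF2α-KO cells, whose libraries are among the 15. Positive correlations between members can therefore follow in part from the choice. The arms of miR-582 varied together (r = 0.929) and those of miR-616 did not (r = -0.219). miR-616-3p had only 8 to 28 counts in a library, and counting error can lower a correlation at that depth. miR-5010-3p had r = 0.679 with miR-616-5p and 0.613 with miR-582-3p. Among all miRNAs tested, those most like miR-582-3p were miR-192-5p (r = 0.931), miR-582-5p and miR-215-5p (0.869). Those most like miR-616-5p were miR-6505-5p (0.834), miR-4423-3p (0.830) and miR-29a-3p (0.732), the first 2 of which had means under 1 TMM CPM (0.588 and 0.867). Those most like miR-5010-3p were miR-30a-5p (0.848), miR-548k (0.843) and miR-185-5p (0.800).

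Other intronic miRNAs were set beside the members. The list held 74 tested miRNAs, of which 68 lay in a sense intron of the listed host in the annotation. The others were the arms of miR-671, looked up and not found there, and miRNAs without a RefSeq entry, which could not be looked up. In HIF1α-KO against normoxic control cells 0 of the 74 were called higher and 4 lower by edgeR, with 15 at an unadjusted p under 0.05. Of all 562 miRNAs, 4 were called higher and 9 lower, with 96 at an unadjusted p under 0.05. Among the 4 of the list called lower, the lowest log2 fold changes were those of miR-105-3p (-1.46 ± 0.337, edgeR adjusted p = 0.0359) and miR-767-3p (-1.07 ± 0.249, adjusted p = 0.0366). These 4 are all arms of miR-105 and miR-767, hosted by GABRA3, a GABA receptor subunit. In HIF2α-KO against HIF1α-KO cells 1 was called higher, miR-671-5p (1.17 ± 0.246, adjusted p = 0.0299), whose hairpin was not found in an intron of its listed host CHPF2, and 0 lower. In HIF2α-KO against normoxic control cells edgeR called 0, with 10 at an unadjusted p under 0.05. The median log2 fold changes of the list in these 3 comparisons were 0.02, 0.04 and 0.01, against 0.63, -0.26 and 0.32 for the 5 members and -0.001, 0.05 and -0.004 for all miRNAs tested.

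The host promoters, from 250 bases before to 50 after a gene start in the RefSeq table (GRCh38.p14), were searched on both strands for the letters ACGTG, which occur in the motif that HIF binds. They were present in 1 of 1 promoter of ATP6V0A1, 0 of 2 of DDIT3 and 1 of 3 of PDE4D that lie upstream of the hairpin, and in 21.4% of 35116 promoters of all genes. The 2 windows of DDIT3, 57520465 to 57520764 and 57520468 to 57520767, overlap almost fully and do not count as independent. The HIF sites that the paper reports for EGF hold the letters GCGTG instead, which were not searched here. The absence of a match in DDIT3 therefore holds for ACGTG only. A match is a description of the letters and not of a bound site.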

How the data were processed

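The authors deposited raw counts of reads per mature miRNA for each of 15 libraries, as whole numbers without normalization. The submitters' processing notes name HISAT2, StringTie and DESeq2, while versions, roles and the genome build are not given in the sources used here. The study's methods name quantile normalization, which the deposited counts do not include. Strand handling is not stated.

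Samples were grouped by genotype, oxygen and replicate number in the labels. The 562 miRNAs kept by filterByExpr were fitted with edgeR 4.0.16 (R 4.3.3), with TMM factors, 1 mean per group and a quasi-likelihood test, and p-values were adjusted by Benjamini-Hochberg over all tested, at a threshold of 0.05. Levels are TMM CPM. The 3 comparisons whose difference of means uses no library of the selecting contrast were tested, also by two-sided exact permutation of TMM CPM. All 15 libraries entered the filter, the TMM factors and the estimate of the spread. The other comparisons are described with standard errors. Intervals of fold changes (95%) use the t quantile at the fit's degrees of freedom. Alternatives were DESeq2 1.42.0, limma 3.58.1 on quantile-normalized log2(CPM + 1), other scalings, no filter, only the libraries compared, a replicate block, the miR-126 set, and each replicate left out. The scripts were tested on simulated data. No replicates were copies of one another (chi-square per degree of freedom at least 61.1).

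The members and lists were chosen with earlier results of these data known. Named miRNAs are all 6 arms, miR-210-3p, for each hairpin the 3 miRNAs with the highest correlation with its more abundant arm, those sharing a seed, and in the list of other intronic miRNAs up to 2 called with the highest and 2 with the lowest log2 fold change. Marker miRNAs of other cell types are named as lists, and miR-877-5p and miR-21-5p were named after their values were seen. Mature sequences and promoters come from RefSeq (GRCh38.p14), and introns from GENCODE v29 (GRCh38).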

Additional observations from a re-analysis of the deposited data

How the results depend on the processing

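Of 280 alternative values of single arms, 251 kept their direction and their side of the threshold or moved by less than 1 SD. The number of members called in HIF1α-KO against normoxic control cells was 2, and 0 with the miR-126 set as covariate (0 to 2 with a replicate left out). In HIF2α-KO against HIF1α-KO cells it was 0, and 1 with library totals, in DESeq2 and without the filter (0 to 1 with a replicate left out). In HIF2α-KO against normoxic control cells it was 0 under every alternative run. The median log2 fold change of the members in the contrast that chose them, 0.94, was 0.79 to 1.21 with a replicate left out and 0.70 to 1.06 under the other settings, and that of miR-616-5p alone, 0.94, moved to 0.62 in limma.

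Over all miRNAs, the number called in HIF1α-KO against normoxic control cells was 13, and 7 with library totals, 20 in DESeq2, 26 without the filter, 3 with the miR-126 set and 3 to 9 with a replicate left out. In HIF2α-KO against HIF1α-KO cells it was 6, and 12, 20 and 14 under the first 3 of these, 0 in edgeR with only the libraries compared (64 at an unadjusted p under 0.05), 3 with the replicate block and 2 to 18 with a replicate left out. In HIF2α-KO against normoxic control cells it was 0, and 13 without the filter and 18 without HIF2α-KO replicate 1 (0 to 18 with a replicate left out). The causes were not tested.

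Small differences turned sign. For miR-616-3p in HIF2α-KO against HIF1α-KO cells the log2 fold change of 0.03 became -0.15 with library totals, -0.021 in limma, -0.063 without the filter, -0.03 with only the libraries compared, and -0.18 to 0.21 with a replicate left out (-0.15, -0.08, -0.07 and -0.18 without HIF1α-KO replicates 2 and 3 and HIF2α-KO replicates 1 and 2). For miR-5010-3p in the same comparison, -0.03 became 0.027 with the miR-126 set and -0.174 to 0.029 with a replicate left out (above 0 without HIF1α-KO replicate 1 or HIF2α-KO replicate 1). For miR-616-3p against normoxic control cells, leaving a replicate out gave -0.414 to 0.147 in HIF1α-KO cells and -0.398 to 0.148 in HIF2α-KO cells, above 0 only without normoxic control replicate 3.

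Libraries with the same replicate number did not deviate together (correlations of -0.524 to 0.503), so the numbers do not pair them. With the replicate block, 2 members were still called in HIF1α-KO against normoxic control cells, and 0 in the other comparisons. At 8 to 28 counts in a library, depth limits what can be said of miR-616-3p.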
